A study of Homo sapiens with 6 samples.

Results

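The Ikaros family is a set of 5 zinc finger transcription factor genes, IKZF1 (Ikaros), IKZF2 (Helios), IKZF3 (Aiolos), IKZF4 (Eos) and IKZF5 (Pegasus). The members were taken by symbol from a table of 23459 Entrez genes, and all 5 were present and passed the filter on low counts, out of 12079 genes tested. RNA was sequenced from Raji, an established line of a germinal centre-derived Burkitt's lymphoma. The 3 control libraries came from cells infected with empty lentiviral vector, and the 3 IRF4OE libraries from cells infected with the same kind of vector carrying human IRF4 cDNA. Both groups were infected for 5 days and then kept for 7 days in puromycin at 3 µg/ml, so both carry a selected vector. The vector's promoter and whether the selected cells descend from 1 or many infected cells are not given in the sources used here. The labels do not say that replicates were separate infections or cultures, so p-values measure no more than how these libraries vary, which can be technical variation. In bulk RNA, fewer cells expressing a gene and less of its RNA per cell cannot be told apart.

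Ikaros proteins bind DNA through a cluster of zinc fingers near the amino end and pair with each other through further fingers at the carboxyl end. In B cells Ikaros and Aiolos recruit the NuRD chromatin remodelling and histone deacetylase complex to genes, and Ikaros is needed for B cells to form at all. Helios and Eos are best known from T cells, above all regulatory T cells, and Pegasus is the most distant relative. In multiple myeloma, drugs of the lenalidomide class bind cereblon, the substrate receptor of a ubiquitin ligase, and direct it to Ikaros and Aiolos, and IRF4 falls as a consequence. The comparison here runs the other way, with IRF4 raised and the Ikaros family measured. Counts were per gene, so isoforms, among them the Ikaros forms that lack DNA-binding fingers, were summed.

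IRF4 (Entrez gene 3662) was present at 1.02, 1.38 and 1.37 CPM (counts scaled to library size with TMM factors) in the control libraries, replicates 1 to 3. The IRF4OE libraries had 150.0, 120.5 and 125.4 CPM. Reads of the introduced cDNA and of the cell's own gene are counted together in these values.

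None of the 5 family genes passed edgeR's quasi-likelihood test at an adjusted p under 0.05, where 3.16% of all genes tested passed and 0.182% passed as lower. At an unadjusted p under 0.05, 2 of the 5 were lower (IKZF1 and IKZF2), against 8.18% of all genes. DESeq2 passed 1 of 5 as lower (IKZF2), against 1.46% of the genes to which it gave an adjusted p, and limma-voom passed 0, against 0.182%. All 5 fitted log2 fold changes were below 0, as were 49% of all genes, and their median was -0.45 beside 0.01 for all genes. For 1 of the 5, IKZF2, the groups did not overlap, with every IRF4OE library below every control library, as was the case for 11.9% of all genes. When library sizes alone set the scale, the all-gene median was 0.10 and the family median -0.35. With median-ratio size factors the family median was -0.46. Under both scalings all 5 values were below 0, beside 37.4% of all genes with library sizes alone and 50.6% with median-ratio size factors. The groups did not overlap for 1 of 5 under either, beside 5.29% and 12.3% of all genes on the lower side.

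**Figure D1:**
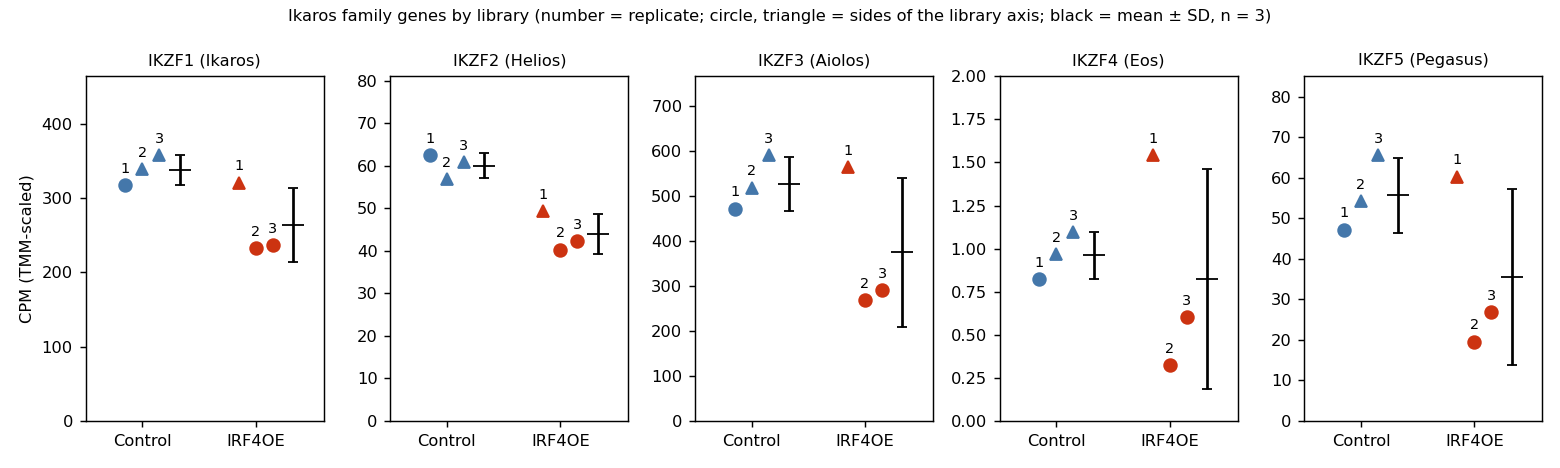
TMM-scaled CPM of each family gene in each library, on axes that start at 0, with replicate numbers, the group mean and its SD (n = 3). IRF4OE replicate 1 lies within or above the control range for IKZF1, IKZF3, IKZF4 and IKZF5, and IKZF2 is the member without overlap, at 40.3 to 49.4 against 56.8 to 62.4 CPM.

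IKZF2, encoding Helios, gave 2508, 1527 and 2224 counts in the 3 control libraries and 1700, 1491 and 2038 in the IRF4OE ones, each in replicate order. These were 62.4, 56.8 and 60.8 CPM against 49.4, 40.3 and 42.2 CPM. Every IRF4OE library lay below every control library, with IRF4OE replicate 1 the nearest to the controls. The mean was 60.0 ± 2.90 CPM in control and 44.0 ± 4.82 CPM in IRF4OE libraries (SD, n = 3 each), 73.2% of the control mean. The log2 fold change was -0.45 (SE 0.11, 95% interval -0.70 to -0.20, edgeR adjusted p = 0.0843), which missed the threshold. It passed with DESeq2 (log2 fold change -0.47, adjusted p = 0.0154).

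Helios is a T cell gene in textbook use, so the T and NK cell markers were read beside it. Of 12 such markers, 6 (CD2, CD7, CD8A, CTLA4, GNLY and NCAM1) had 0 counts in every library and none passed the filter. CD3D and CD3E had at most 2 and 3 counts in any library, and 10 of the 12 markers had at most 10. The 12 together summed to 0.298 to 0.492 CPM in control and 0.497 to 0.621 CPM in IRF4OE libraries, far under the level of IKZF2 in either group. Their sum was higher in every IRF4OE library than in any control library, the direction opposite to that of IKZF2.

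IKZF1, encoding Ikaros, was at 318, 339 and 357 CPM in control and 321, 232 and 237 CPM in IRF4OE replicates 1, 2 and 3. IRF4OE replicate 1 lay inside the control range and the other two IRF4OE libraries below it. The means were 338 ± 19.8 and 263 ± 49.8 CPM (SD, n = 3 each). The log2 fold change was -0.36 (SE 0.14, 95% interval -0.70 to -0.02, edgeR adjusted p = 0.233).

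IKZF3, encoding Aiolos, the member most tied to mature B cells, was at 472, 519 and 590 CPM in control and 565, 269 and 290 CPM in IRF4OE replicates 1, 2 and 3. The pattern was that of IKZF1 with wider spacing: IRF4OE replicate 1 was within the control range, and replicates 2 and 3 were below it. The means were 527 ± 59.5 and 375 ± 165 CPM (SD, n = 3 each), with a log2 fold change of -0.49 (SE 0.29, 95% interval -1.17 to 0.19, edgeR adjusted p = 0.348).

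IKZF5, encoding Pegasus, was at 47.2, 54.3 and 65.5 CPM in control and 60.3, 19.6 and 26.8 CPM in IRF4OE replicates 1, 2 and 3. The means were 55.7 ± 9.22 and 35.5 ± 21.7 CPM (SD, n = 3 each). Its log2 fold change of -0.65 was farther from 0 than those of the other 4 members and also had a wide interval (SE 0.40, 95% interval -1.59 to 0.30, edgeR adjusted p = 0.366). Here again IRF4OE replicate 1 lay inside the control range.

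IKZF4, encoding Eos, was near the lower limit of what these libraries measure, with 33, 26 and 40 counts in control and 53, 12 and 29 counts in IRF4OE replicates 1, 2 and 3. In CPM these were 0.822, 0.967 and 1.09 against 1.54, 0.324 and 0.601. IRF4OE replicate 1 was above all controls and the other two IRF4OE libraries below all controls. The log2 fold change was -0.25 (SE 0.51, 95% interval -1.47 to 0.97, edgeR adjusted p = 0.775), an interval that covers changes of more than 1 log2 unit downwards. Without IRF4OE replicate 2 its sign turned (0.14).

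Divided by the deposited gene width, the levels had 1 order in the control libraries. IKZF3 was highest at 52.7 ± 5.94 CPM per kb, followed by IKZF1 at 43.2 ± 2.54, IKZF5 at 11.6 ± 1.92, IKZF2 at 5.26 ± 0.255 and IKZF4 at 0.163 ± 0.0231 CPM per kb (SD, n = 3 each). All 3 control libraries gave this same order, and no neighbours in it overlapped. Aiolos and Ikaros together made up most of the family's level per length, with 46.6% ± 0.974 from IKZF3 and 38.3% ± 1.29 from IKZF1 (SD, n = 3). In IRF4OE libraries the levels per kb were 37.4 ± 16.5 for IKZF3, 33.6 ± 6.37 for IKZF1, 7.39 ± 4.51 for IKZF5, 3.86 ± 0.422 for IKZF2 and 0.139 ± 0.108 for IKZF4 (SD, n = 3 each). There the ranges of IKZF3 (26.8 to 56.4) and IKZF1 (29.7 to 41.0) overlapped, as did those of IKZF5 (4.07 to 12.5) and IKZF2 (3.53 to 4.33).

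The balance between Aiolos and Ikaros differed among the IRF4OE libraries. The ratio of IKZF3 to IKZF1 per kb was 1.16, 1.20 and 1.29 in control replicates 1, 2 and 3. It was 1.38 in IRF4OE replicate 1, above all controls, and 0.905 and 0.959 in IRF4OE replicates 2 and 3, below all controls. By the deposited width, 1 value per gene whatever isoforms were expressed, Aiolos was thus the highest member in 4 libraries and Ikaros in the other 2. Relative to its mean, the ratio of IKZF1 to IKZF2 per kb was steadier among IRF4OE libraries but not among control libraries. It was 8.22 ± 0.703 in control and 8.67 ± 0.685 in IRF4OE libraries (SD, n = 3 each), a difference smaller than the spread within either group.

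**Figure D2:**
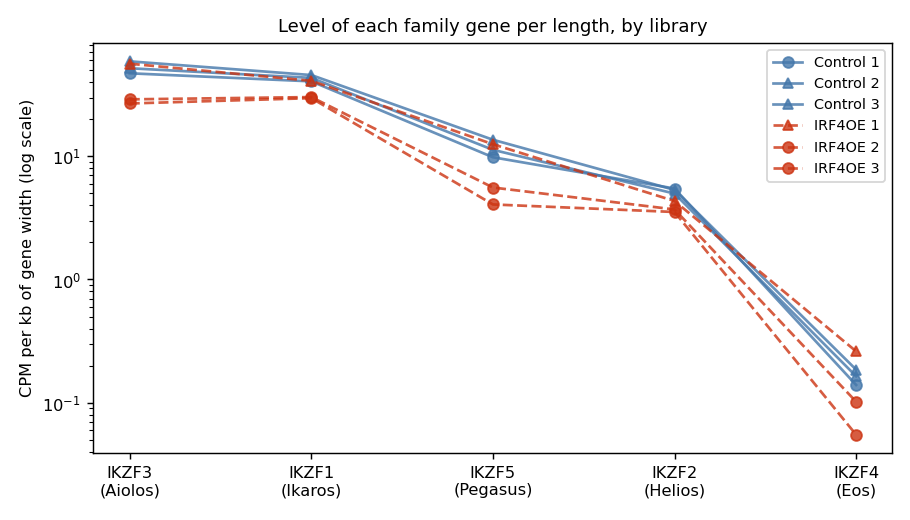
Level of each family gene in CPM per kb of gene width (log axis), 1 line per library, with control solid and IRF4OE dashed. The control libraries keep 1 order from IKZF3 to IKZF4, while IKZF1 lies above IKZF3 in IRF4OE replicates 2 and 3.

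The spread among IRF4OE libraries followed an axis shared by most genes of this data set. On it, control replicate 1 and IRF4OE replicates 2 and 3 lie on one side (side A) and control replicates 2 and 3 and IRF4OE replicate 1 on the other (side B). Over all genes the axis took up 74.3% of the within-group variance in log2 CPM, with a median of 75.6% per gene. For the members its part was 97.7% for IKZF1, 95.3% for IKZF3, 91.1% for IKZF5, 83.5% for IKZF4 and 51.2% for IKZF2. The level in IRF4OE replicate 1 was 1.37 times the mean of IRF4OE replicates 2 and 3 for IKZF1, 1.20 times for IKZF2, 2.02 times for IKZF3, 2.60 times for IKZF5 and 3.33 times for IKZF4. All 5 members were thus highest in the same IRF4OE library, by the smallest margin for Helios.

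Within side A, which has 1 control library, the log2 ratio of IRF4OE to control was -0.44 for IKZF1, -0.60 for IKZF2, -0.76 for IKZF3, -0.83 for IKZF4 and -1.03 for IKZF5. Within side B, which has 1 IRF4OE library, it was -0.12 for IKZF1, -0.25 for IKZF2, 0.03 for IKZF3, 0.58 for IKZF4 and 0.01 for IKZF5. IKZF1 and IKZF2 were therefore below 0 on both sides. IKZF3 and IKZF5 were below 0 on side A and near 0 on side B, and IKZF4 had opposite signs. The libraries are less well matched on side B. There IRF4OE replicate 1 scored -0.741 on the axis, against -0.107 and -0.228 for control replicates 2 and 3. On side A, IRF4OE replicates 2 and 3 scored 0.396 and 0.345, against 0.335 for control replicate 1. With a term for the side in the edgeR model, 1 of 5 members passed as lower, against 3.22% of all genes. This was IKZF2 (log2 fold change -0.43, SE 0.09, edgeR adjusted p = 0.0379), while IKZF1 was at -0.28 (adjusted p = 0.0757), IKZF3 at -0.37 (0.173), IKZF5 at -0.50 (0.186) and IKZF4 at 0.0028 (0.997). Because the same counts defined the sides, this term makes p-values too small.

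Leaving out IRF4OE replicate 1 gave all 5 members as lower, where 25.1% of all genes were called lower. The log2 fold changes were then -0.54 for IKZF1, -0.55 for IKZF2, -0.93 for IKZF3, -1.02 for IKZF4 and -1.27 for IKZF5 (edgeR adjusted p = 0.00101, 0.00127, 3.42e-04, 0.0321 and 7.01e-04). That fit has no term for the side: both IRF4OE libraries left are on side A and control replicates 2 and 3 on side B, so group and side partly coincide in it. The ratios within side A, given above, compare the same IRF4OE libraries with control replicate 1 alone. Leaving out any other single library gave 0 of 5 members as lower, where 0.0244%, 0.0245% or 0.0246% of all genes were called lower.

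**Figure D3:**
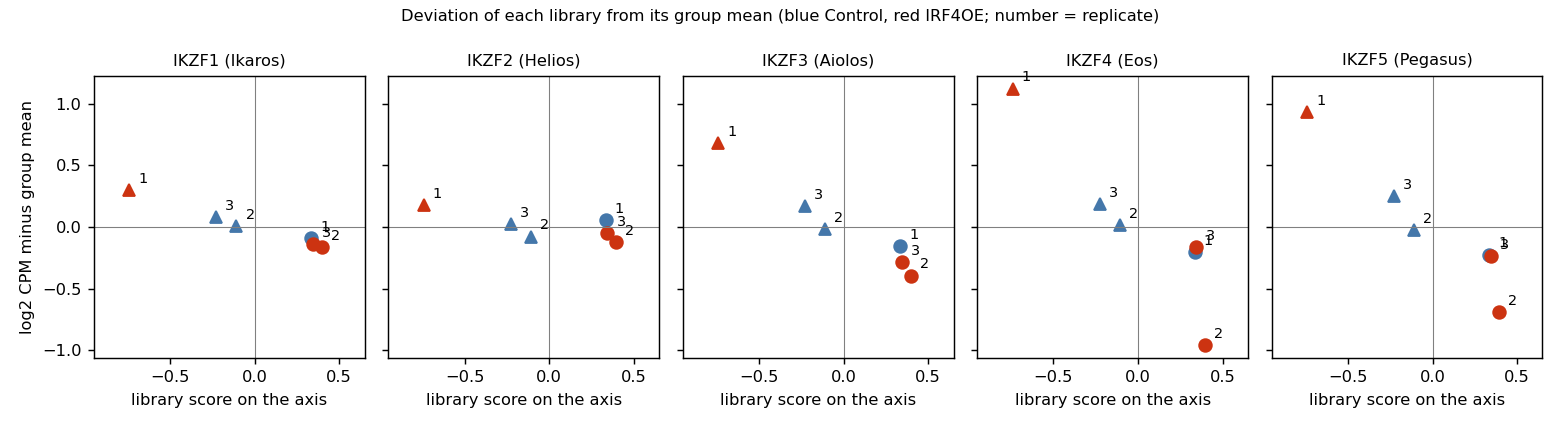
Deviation of each library's log2 CPM from its group mean (vertical) against the library's score on the shared axis (horizontal, no unit), for each family gene. IRF4OE replicate 1 stands at the far left and above its group mean in all 5 panels, least so for IKZF2.

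**Figure D4:**
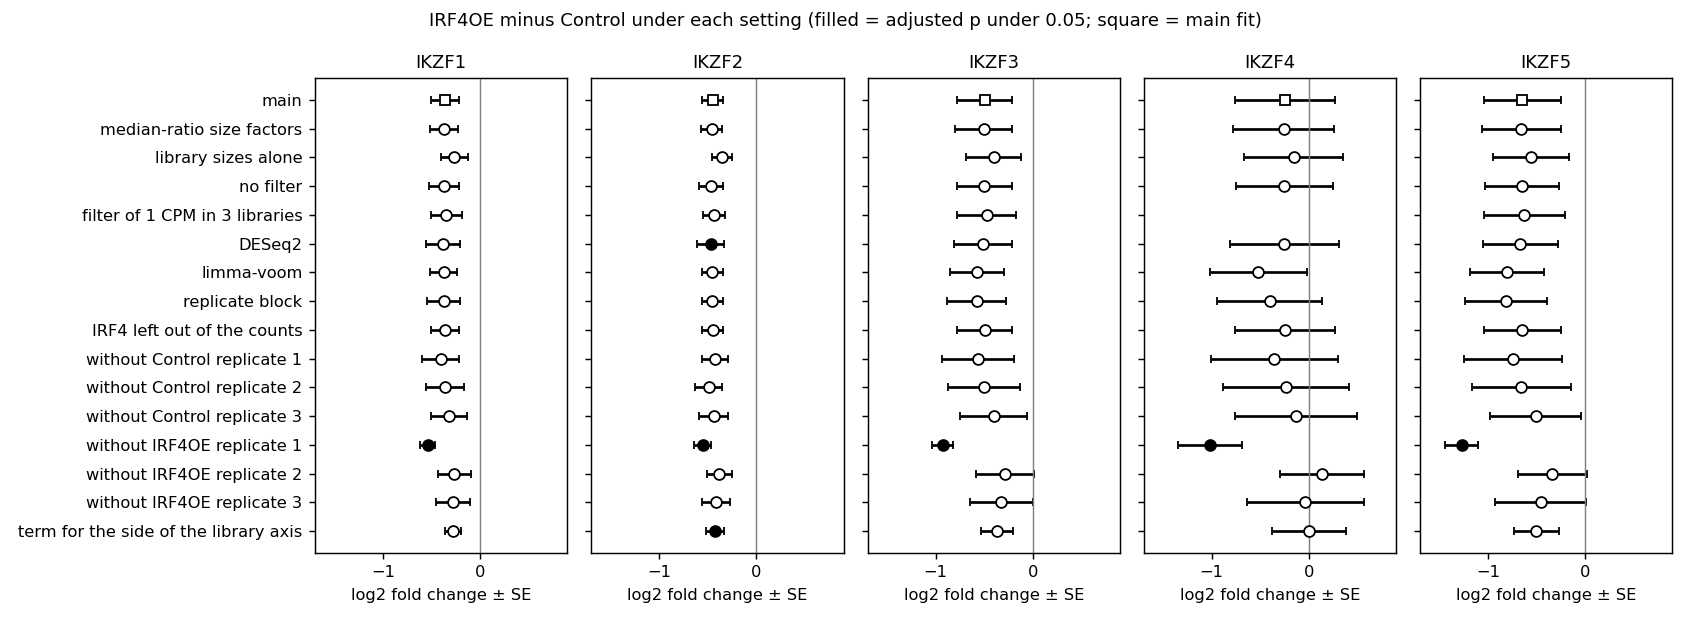
Log2 fold change of each member, IRF4OE minus control, with its SE, under the main fit and each other setting. Filled points had an adjusted p under 0.05: all 5 members without IRF4OE replicate 1, and IKZF2 also with DESeq2 and with the axis term.

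The genes whose profile over the 6 libraries was most like that of each member were found among 9466 tested genes whose mean level reached 5 CPM. Likeness was the root mean square difference between profiles of log2 CPM, each centred on its own mean. Nearest to IKZF1 were ATF7IP, RBM17 and SSU72, at 0.00435, 0.0181 and 0.0207 log2 units. Nearest to IKZF3 were NFATC3, CDC73 and PPP3CB, at 0.0209, 0.0262 and 0.0327 log2 units. Nearest to IKZF2 were SEH1L, NUCKS1 and GMPS, at 0.0228, 0.0318 and 0.036 log2 units. IKZF5 had C2CD3, AIDA and POGZ (0.0695, 0.0746 and 0.0771) and IKZF4 had IGF1R, BMPR2 and RUNX1 (0.165, 0.197 and 0.197). Within the family, the most alike pair was IKZF1 with IKZF2 (0.105 log2 units) and the least alike IKZF2 with IKZF4 (0.534). The likeness includes the shared library axis and is a description of these 6 libraries.

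The start regions of the family genes are shown for the 2 members with an unadjusted p under 0.05. RefSeq's promoter table for GRCh38.p14 matched 4 of 5 members (IKZF1, IKZF2, IKZF4 and IKZF5), with 10 start sites in all. Its coordinates are of another build than the deposited counts, and the counts themselves have none. The 250 bases before the first listed start of each gene are given 5′ to 3′ in the direction of the gene, with capitals marking the Ikaros core TGGGAA. The IKZF1 stretch is chr7:50304466-50304715 on the plus strand and the IKZF2 stretch is chr2:213152457-213152706 on the minus strand.
IKZF1: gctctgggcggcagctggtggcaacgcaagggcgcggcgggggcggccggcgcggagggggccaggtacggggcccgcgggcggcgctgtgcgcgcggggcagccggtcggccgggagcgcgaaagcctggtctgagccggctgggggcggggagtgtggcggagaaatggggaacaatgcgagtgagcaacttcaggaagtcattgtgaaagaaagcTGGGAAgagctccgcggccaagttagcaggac
IKZF2: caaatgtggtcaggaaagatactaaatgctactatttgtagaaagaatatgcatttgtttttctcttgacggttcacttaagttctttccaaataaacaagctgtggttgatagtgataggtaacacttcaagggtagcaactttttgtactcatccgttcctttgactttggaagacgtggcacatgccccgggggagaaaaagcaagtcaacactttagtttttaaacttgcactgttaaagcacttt
The IKZF1 stretch holds TGGGAA once, from -32 to -27 relative to the start, and the IKZF2 stretch does not hold it. On both strands, TGGGAA was found in 20.8% of the 35116 stretches of this length in the table. Of the 10 family stretches, 1 held it. A match or its lack says only which letters stand in these windows.

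Genes that work with the Ikaros family were then read from lists of partners, modifiers and targets, none of which except the interferon list held a gene that passed edgeR's test. Without IRF4OE replicate 1, 45% of all genes passed in either direction. Of those tested in the main fit, 9 of 13 NuRD genes, 6 of 8 other chromatin partners and 4 of 8 kinases and phosphatases passed then. So did 2 of 7 cereblon ligase genes, 4 of 7 other cereblon substrates, 1 of 3 early B cell genes and 9 of 10 B lineage factors. These shares lay on both sides of that of all genes. With the term for the side, which makes p-values too small, 1098 of 12079 genes passed. The counts in these lists, in the same order, were then 2, 0, 1, 1, 2, 1 and 2.

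In the NuRD list, 0 of 13 tested genes passed by edgeR, DESeq2 or limma-voom, and 3 (HDAC1, GATAD2A and CHD4, the last outside the rule for named genes and given to complete the count) were lower at an unadjusted p under 0.05, beside 8.18% of all genes. All 13 log2 fold changes were below 0, with a median of -0.27, beside 49% and 0.01 for all genes. With library sizes alone this was 10 of 13, beside 37.4% of all genes. IRF4OE libraries lay wholly below control for 3 of 13, beside 11.9% of all genes. With library sizes alone they did so for 0 of 13, beside 5.29%. On side B of the library axis the log2 ratio was above 0 for CHD3 (0.03), MTA1 (0.02), HDAC2 (0.12) and GATAD2B (0.11). It was below 0 there for the other tested genes of the list. These genes are outside the rule for named genes and are given for their sign. HDAC1, a histone deacetylase of the complex, was at 541, 503 and 492 CPM in control and 415, 462 and 422 CPM in IRF4OE replicates 1, 2 and 3, with no overlap (log2 fold change -0.24, SE 0.09, edgeR adjusted p = 0.209). GATAD2A, a scaffold subunit, was at 258, 321 and 348 against 285, 170 and 155 CPM, with IRF4OE replicate 1 inside the control range (log2 fold change -0.60, SE 0.25, edgeR adjusted p = 0.244). CDK2AP1, the member not tested, had 1 count over the 6 libraries.

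Among other chromatin partners, 0 of 8 tested genes passed by edgeR, DESeq2 or limma-voom, with 2 lower at an unadjusted p under 0.05, beside 8.18% of all genes, and a median log2 fold change of -0.27, beside 0.01. These 2 were EZH2 and SUZ12, the methyltransferase and a core subunit of Polycomb repressive complex 2. EZH2 was at 167, 166 and 171 CPM in control and 152, 115 and 116 CPM in IRF4OE libraries. Its groups did not overlap, as for 11.9% of all genes on the lower side (log2 fold change -0.39, SE 0.13, edgeR adjusted p = 0.178). SUZ12 was at 300.4, 242 and 272 against 243, 206 and 188 CPM, and its groups overlapped by a small margin (log2 fold change -0.35, SE 0.13, edgeR adjusted p = 0.212). CTBP2, a corepressor, was not tested, with at most 5 counts in any library.

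Of 8 kinases and phosphatases that act on Ikaros, 0 passed by edgeR, DESeq2 or limma-voom and 3 were lower at an unadjusted p under 0.05, beside 8.18% of all genes. For 6 of the 8 every IRF4OE library lay below every control library, beside 11.9% of all genes, and with library sizes alone for 2 of 8, beside 5.29%. CSNK2A2, a catalytic subunit of casein kinase 2, which phosphorylates Ikaros and lowers its DNA binding, was at 211, 240.5 and 259 CPM in control and 203, 110 and 106 CPM in IRF4OE replicates 1, 2 and 3 (log2 fold change -0.76, SE 0.26, edgeR adjusted p = 0.188). CSNK2B, its regulatory subunit, was at 185, 190 and 198 against 170, 154 and 135 CPM (log2 fold change -0.32, SE 0.11, edgeR adjusted p = 0.180). In both genes the IRF4OE library nearest to the controls was replicate 1.

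In the cereblon ligase list, 0 of 7 genes passed by edgeR, DESeq2 or limma-voom, with 2 lower at an unadjusted p under 0.05, beside 8.18% of all genes. The median log2 fold change was -0.05, and 0.04 with library sizes alone. The scaffold gene CUL4A was at 290.0, 262 and 263 CPM in control and 221, 246 and 226 CPM in IRF4OE libraries, and the adaptor gene DDB1 at 667, 707 and 699 against 608, 620.0 and 571 CPM. For both, every IRF4OE library lay below every control library, as was the case for 11.9% of all genes. The log2 fold changes were -0.23 and -0.20 (edgeR adjusted p = 0.223 and 0.235). CRBN, the receptor itself, named for its role, was at 25, 18.9 and 19.9 against 19.5, 27.9 and 30.0 CPM, with overlapping groups (log2 fold change 0.28, SE 0.19, edgeR adjusted p = 0.407).

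Of 7 other substrates of drug-bound cereblon, 0 passed by edgeR or limma-voom and 1 by DESeq2 as higher, beside 4.09% of the genes with a DESeq2 adjusted p. At an unadjusted p under 0.05, 1 was higher and 2 lower, beside 11.3% and 8.18% of all genes. The gene passed by DESeq2 was ZNF692, a zinc finger gene, at 13.6, 16.3 and 14.7 CPM in control and 20.7, 19.9 and 20.6 CPM in IRF4OE libraries (log2 fold change 0.46, SE 0.10, edgeR adjusted p = 0.0778, DESeq2 adjusted p = 0.0207). All 3 IRF4OE libraries lay close together and above the controls, where 13.5% of all genes lay wholly above them. ZNF692 also passed in edgeR with library sizes alone (adjusted p = 0.0355), with the axis term (0.0202) and without IRF4OE replicate 1 (0.0105), and its adjusted p was 0.0688 to 0.381 under the other alternatives. ZFP91, a zinc finger ubiquitin ligase gene, was at 249, 240.2 and 258 against 218, 187 and 193 CPM. It was also without overlap but in the other direction, as were 11.9% of all genes (log2 fold change -0.32, SE 0.09, edgeR adjusted p = 0.142). ZFP91 likewise passed in edgeR with the axis term (adjusted p = 0.0483) and without IRF4OE replicate 1 (0.0025), where 45% of all genes passed.

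Of 9 early B cell genes under Ikaros and Aiolos control, 3 were abundant enough to test and 0 passed by edgeR, DESeq2 or limma-voom, with 1 lower at an unadjusted p under 0.05, beside 8.18% of all genes. The surrogate light chain genes IGLL1 and VPREB1, which Ikaros family proteins keep off in mature B cells, had 0 to 10 and 4 to 11 counts per library, IGLL1 with 0, 3 and 0 in control and 7, 7 and 10 in IRF4OE libraries, and DNTT, RAG2, KIT and CD34 at most 4. VPREB3, a B cell gene related to VPREB1, was at 33.7, 40.8 and 40.0 CPM in control and 34.1, 25.7 and 23.5 CPM in IRF4OE libraries (log2 fold change -0.46, SE 0.16, edgeR adjusted p = 0.200). RAG1, a recombinase gene, was below 1 CPM throughout, at 0.523, 0.446 and 0.328 against 0.552, 0.702 and 0.725 CPM (log2 fold change 0.61, SE 0.26, edgeR adjusted p = 0.259).

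The interferon list holds genes that rise when Ikaros and Aiolos are degraded in lymphoma lines (IRF7, IFIT1, IFIT2, IFIT3, RIGI and TNFSF10), and all 6 rose here by edgeR, beside 2.98% of all genes called higher. The list was written with the interferon response of these libraries already known, so its direction is not independent evidence. IFIT3 rose from 3.21, 2.83 and 3.39 CPM in control to 23.9, 32.6 and 33.2 CPM in IRF4OE libraries (log2 fold change 3.24, SE 0.17, edgeR adjusted p = 5.38e-04). IFIT1 rose from 1.79, 1.30 and 1.45 to 18.7, 33.2 and 29.6 CPM (log2 fold change 4.15, SE 0.27, edgeR adjusted p = 8.94e-04). For both genes IRF4OE replicate 1 was the lowest of its group and above every control.

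Among 10 B lineage transcription factors, 0 passed by edgeR, DESeq2 or limma-voom, with 2 higher and 1 lower at an unadjusted p under 0.05, beside 11.3% and 8.18% of all genes. Their median log2 fold change was -0.27, beside 0.01 for all genes, and 6 of the 10 were below 0, beside 49%. BACH2, a repressor that delays plasma cell differentiation, was at 6.05, 7.59 and 6.98 CPM in control and 10.4, 8.40 and 9.88 CPM in IRF4OE libraries (log2 fold change 0.48, SE 0.14, edgeR adjusted p = 0.144). IRF8, the closest relative of IRF4, was at 168, 163 and 166 against 184, 208 and 209 CPM (log2 fold change 0.27, SE 0.09, edgeR adjusted p = 0.173). For both genes every IRF4OE library lay above every control library, as was the case for 13.5% of all genes.

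**Figure D5:**
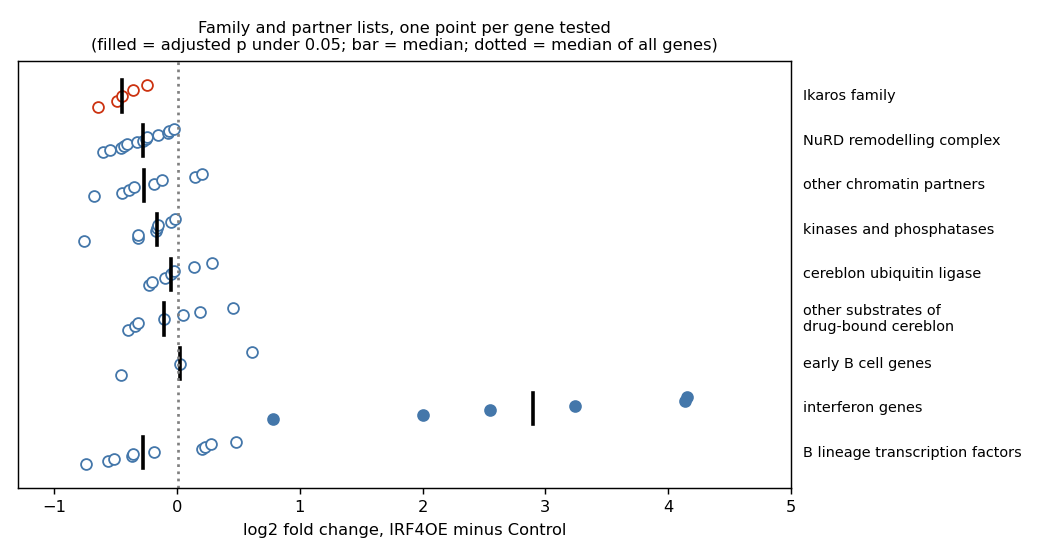
Log2 fold change of every tested gene of the Ikaros family and of 8 partner and target lists, with the list median (bar) and the median of all genes (dotted line). Filled points had an adjusted p under 0.05 and occur only in the interferon list among those drawn.

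B cell markers were abundant in every library: 9 of them summed to 2650 to 2811 CPM in control and 2745 to 2828 CPM in IRF4OE libraries. Of these, 0 of 9 passed by edgeR, beside 3.16% of all genes. At an unadjusted p under 0.05, 2 of them were higher, beside 11.3% of all genes. Of 5 tested plasma cell markers 0 passed by edgeR, beside 3.16% of all genes. At an unadjusted p under 0.05, 1 of the 5 was lower, beside 8.18% of all genes. That marker was the only 1 of the 5 with a log2 fold change below 0, where 49% of all genes were. The median of the 5 was 0.20, beside 0.01 for all genes. Markers of some other lineages were low. The myeloid, mesenchymal, and epithelial and kidney sums were higher in every IRF4OE library than in any control library. The 8 myeloid markers summed to 3.01 to 3.31 against 5.64 to 9.16 CPM. Of 4 tested, 1 (ITGAM) passed by edgeR as higher, beside 2.98% of all genes. The 4 mesenchymal markers summed to 0.473 to 1.12 against 1.30 to 3.75 CPM, and 6 epithelial and kidney ones to 0.0996 to 0.274 against 0.320 to 0.837 CPM. The 4 erythroid and platelet markers summed to 0 to 0.0498 against 0.0291 to 0.0829 CPM, with overlapping groups. CD2, MPO, HBB, EPCAM and COL3A1 had 0 counts in every library. The part of these low signals in the values above was not tested. The libraries held 27681979 to 46210702 counts.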

How the data were processed

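RNA-seq was analysed from 3 control and 3 IRF4OE libraries of Raji cells. As deposited, values are raw counts by Entrez gene and library, beside a gene width in bases. Libraries were made with a stranded mRNA kit, per the labels' protocols. The submitters' processing notes name the genome builds mm9 and hg19. The aligner, counter and annotation are not given in the sources used here, so reads of overlapping genes cannot be followed. Of 23459 rows, 23308 matched a symbol.

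The comparison used edgeR (version 4.0.16, under R 4.3.3): genes were filtered with filterByExpr, scaled by TMM and tested by quasi-likelihood F-test, two-sided, with group as the only term, over 12079 genes, with Benjamini-Hochberg adjustment over all of them and a threshold of 0.05. The test was tested on simulated data. Those data had a fixed dispersion and no shared library axis, unlike these libraries, so they do not show how the test behaves here. Intervals are at the 95% level and come from the same fit. CPM uses TMM-scaled library sizes, and CPM per kb divides by the width. Alternatives used DESeq2 1.42.0 and limma-voom (limma 3.58.1), with their calls given in the Results and the effect of DESeq2 also in the closing section. Figures used matplotlib 3.10.9. The members and lists were chosen with earlier results of these data known. Named genes were the 5 members, IRF4, the 2 smallest p of each list (all that passed, where 4 or fewer did), and the 3 genes most like each member. Replicate pairs differed beyond sampling noise (chi-square per gene of 6.73 to 196). The control columns are headed WT in the table and were taken as the empty-vector libraries by cell line and replicate number. The germinal centre marker list is not reported here, so the germinal centre origin in the labels was not checked.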

Additional observations from a re-analysis of the deposited data

How the results depend on the processing

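The number of genes changed was 382. It was 761 with DESeq2, 1098 with a term for the side of the library axis, which was chosen after seeing the data, and 123 to 5507 without single libraries. The highest value was that without IRF4OE replicate 1, and the cause was not tested. Of 74 refits of family members, 65 kept direction and side of the threshold, so in these the member did not pass. All 5 members passed as lower without IRF4OE replicate 1, where 25.1% of all genes did. IKZF2 passed also with DESeq2 (-0.47) and the axis term (-0.43). Without single libraries the log2 fold change ran from -0.54 to -0.27 for IKZF1, from -0.55 to -0.38 for IKZF2, from -0.93 to -0.29 for IKZF3, from -1.02 to 0.14 for IKZF4 and from -1.27 to -0.34 for IKZF5. IKZF4 turned sign without IRF4OE replicate 2 (0.14) and with the axis term (0.0028). IKZF4 was below the filter of 1 CPM in 3 libraries and has no value there. Its low counts limit what can be seen of it.

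With the replicate number as a block, 3 genes passed, and the log2 fold changes were -0.38, -0.45, -0.58, -0.40 and -0.81 for IKZF1 to IKZF5, none of which passed. In that replicate block fit 0 of the 6 interferon list genes passed. Same-numbered libraries deviated from their group means in opposite directions (r over genes of -0.65, -0.22 and -0.47 for replicates 1, 2 and 3), so the numbers are not taken to pair the libraries, and no library correlated best with its own number.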
